A study of Mus musculus with 36 samples.

Results

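The genes described here were Apoe, Apoc1 and Apoc2, which encode apolipoproteins, Abca1 and Abcg1, which encode cholesterol efflux transporters, Nr1h2 and Nr1h3, which encode the oxysterol receptors LXRβ and LXRα, and Lpl, which encodes lipoprotein lipase. They were taken by gene name, with earlier results of these data known, and are 8 of the 27562 genes in the table. Male young adult C57BL/6J mice (CD45.2) were lethally irradiated with the chest shielded, treated with busulfan and given bone marrow from B6.SJL-Ptprc a Pepc b/BoyJ donors (CD45.1), so every group came from chimeric mice. They were then kept in chambers supplied with filtered air (FA) or concentrated fine particulate matter (PM2.5) for 4-weeks or 32-weeks. Alveolar macrophages (AΦ) were sorted from lung as CD64+ CD11c hi CD11b lo cells, and monocytes as CD64 lo CD11b hi cells negative for Ly6G and MHC II. The chimeras used had nearly all circulating monocytes from the donor, by the study's methods. Tissue-resident AΦ (TR-AΦ) and CD45.2 monocytes derive from the recipient and were sequenced at both times. Bone marrow-derived AΦ (BM-AΦ) and CD45.1 monocytes derive from the donor marrow and were sequenced at 32-weeks only. With FA and PM2.5 this gave 12 groups of 3 libraries, each library from 1 mouse, numbered 0, 1 and 2 in the labels. By the study's methods 3 mice were taken for each exposure and time, so the populations of 1 exposure and time share mice, but which number marks which mouse is not given in the sources used here. The labels number the AΦ and monocytes of 32-weeks 1 and 2, which the study's key gives as bone marrow-derived and tissue-resident for AΦ and which was read the same way for monocytes. Time in the chamber, age of the mice and any difference in handling between the 4-weeks and 32-weeks cohorts cannot be told apart.

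Cholesterol that a macrophage cannot use is passed to carriers outside the cell: ABCA1 loads lipid-poor apolipoproteins, ABCG1 loads lipoprotein particles, and apolipoprotein E secreted by the macrophage can itself act as an acceptor. Oxysterols made from excess cholesterol bind LXRα and LXRβ, which pair with retinoid X receptors and raise transcription of Abca1, Abcg1 and Apoe. AΦ take up and break down surfactant lipid, and loss of Abcg1 or of the signals that maintain AΦ is known to fill them with lipid. Lipoprotein lipase releases fatty acids from triglyceride, with apolipoprotein C2 as its activator and apolipoprotein C1 as an inhibitor of lipid transfer and lipase steps.

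Apoe, Apoc1 and Apoc2 lie in 1 cluster on the minus strand of chromosome 7. In mm10, with gene ends from GENCODE M21, Apoe (ENSMUSG00000002985.16) spans chr7:19696109-19699188, Apoc1 (ENSMUSG00000040564.14) spans chr7:19689481-19692660 and Apoc2 (ENSMUSG00000002992.17) spans chr7:19671579-19677941. Apoc1 and Apoe are 3448 bases apart. The locus of Apoc2 in the authors' table is shared with Apoc4 and Gm44805, whose own values did not exceed 1.31 and 1.22 FPKM in any library, so reads could have been divided among these genes. Nr1h2 (ENSMUSG00000060601.13), at chr7:44549616-44553951 on the minus strand, is on the same chromosome 24.9 Mb away. Nr1h3 (ENSMUSG00000002108.10) lies at chr2:91184061-91202834 and Abca1 (ENSMUSG00000015243.4) at chr4:53030787-53159895, both on the minus strand. Abcg1 (ENSMUSG00000024030.6) at chr17:31057675-31117988 and Lpl (ENSMUSG00000015568.15) at chr8:68880491-68907448 are on the plus strand.

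The sequences around the start sites of 4 of the genes are shown because these genes mark the main patterns below. Apoe and Apoc2 were lower in AΦ than in monocytes, Abca1 was higher in CD45.2 monocytes of 32-weeks than of 4-weeks, and Nr1h2 varied least. Each window is from RefSeq (GRCm38.p6), is 300 bases long, reads along the strand of the gene and ends 50 bases after the start site. Capitals mark matches, on either strand, to the motifs searched, which were chosen after the sequences were seen. These were the direct repeat 4 core bound by LXR with its partner (GGTNA repeated, 5 bases apart), the direct repeat 1 core (the same, 2 bases apart), the nuclear receptor core AGGTCA, the ETS core CCGGAAGT and the TATA box TATAAA. The Apoe window was chr7:19699139-19699438, that of Apoc2 chr7:19677892-19678191, that of Abca1 chr4:53159846-53160145 and that of Nr1h2 chr7:44553916-44554215, all on the minus strand.
Apoe: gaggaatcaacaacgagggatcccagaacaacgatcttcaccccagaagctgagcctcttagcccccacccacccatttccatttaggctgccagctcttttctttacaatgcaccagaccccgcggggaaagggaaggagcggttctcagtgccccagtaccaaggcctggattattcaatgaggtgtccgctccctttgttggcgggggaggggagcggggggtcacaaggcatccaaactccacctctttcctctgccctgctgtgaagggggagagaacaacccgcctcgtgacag
Apoc2: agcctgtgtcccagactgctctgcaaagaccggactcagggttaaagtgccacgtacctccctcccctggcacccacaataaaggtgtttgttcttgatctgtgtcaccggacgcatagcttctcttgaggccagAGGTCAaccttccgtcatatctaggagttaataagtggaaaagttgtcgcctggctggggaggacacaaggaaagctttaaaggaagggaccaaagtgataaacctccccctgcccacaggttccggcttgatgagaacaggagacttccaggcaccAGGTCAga
Abca1: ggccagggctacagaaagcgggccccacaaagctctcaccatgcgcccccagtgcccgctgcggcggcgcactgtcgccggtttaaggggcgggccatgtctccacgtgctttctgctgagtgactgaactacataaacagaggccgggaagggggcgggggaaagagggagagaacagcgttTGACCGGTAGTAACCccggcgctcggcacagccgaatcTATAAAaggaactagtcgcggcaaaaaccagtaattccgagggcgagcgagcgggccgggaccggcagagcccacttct
Nr1h2: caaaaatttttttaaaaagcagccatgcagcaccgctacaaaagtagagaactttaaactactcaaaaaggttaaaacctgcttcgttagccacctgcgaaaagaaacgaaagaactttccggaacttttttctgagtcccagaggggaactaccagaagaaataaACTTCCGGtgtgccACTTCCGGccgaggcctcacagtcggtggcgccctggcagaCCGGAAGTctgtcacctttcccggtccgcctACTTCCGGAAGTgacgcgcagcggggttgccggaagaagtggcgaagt

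The Abca1 window held a direct repeat 4 core on the opposite strand, beginning 67 bases before the start site, and a TATA box beginning 29 bases before it. The direct repeat 4 core was found in 0.718% of 32851 RefSeq windows of this length and the TATA box in 13.6%. Apoc2 had AGGTCA 115 bases before and 43 bases after the start site, and this motif was found in 16.3% of all windows. Nr1h2 had 5 matches to the ETS core, of which the last 2 overlap, where 3.89% of all windows had at least 1. None of the 5 motifs matched in the windows of Apoe and Nr1h3, the latter being chr2:91195067-91195366. The direct repeat 1 core, found in 1.10% of all windows, matched in none of the 5 windows. RefSeq held 3 windows for Apoe and 2 for Nr1h3, and only that nearest the gene's 5' end in the authors' table was searched. A match describes the letters only, and binding was not measured.

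The authors' values are FPKM, fragments scaled to transcript length and to the mapped fragments of the library, so levels of different genes can be compared per length, but read numbers are not known. The 18 AΦ libraries had 69.6 to 157 FPKM of Siglecf, a surface lectin of AΦ, and the 18 monocyte libraries had 0.179 to 8.99 FPKM. Ly6c2, which marks classical monocytes, was 0 to 16.5 FPKM in AΦ and 127 to 516 FPKM in monocytes, so these 2 markers matched the labels. In CD45.2 monocytes of 32-weeks the summed interstitial macrophage markers, listed next, nevertheless exceeded the summed monocyte markers in FA replicate 0 (3457 against 1467 FPKM) and PM2.5 replicate 1 (2904 against 1767 FPKM). A list of 9 interstitial macrophage markers (C1qa, C1qb, C1qc, Cd163, Lyve1, Folr2, Stab1, Tmem119 and Cd4) differed between populations and is given beside the results it moved with. The replicate numbers also mark a difference. The summed FPKM of 5 red cell genes was highest in replicate 2 in 8 of 8 groups of 32-weeks (17.7 to 85.7 FPKM, where the other replicates had 0 to 19.5), and lowest in replicate 2 in 4 of 4 groups of 4-weeks (0 to 1.31 FPKM, where the others had 6.91 to 157). Results that change without replicate 2 are therefore named.

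Abcg1 was the highest of the 8 genes in each AΦ population and Apoe the highest in each monocyte population. In TR-AΦ of 4-weeks the mean levels were 508 ± 72.0 FPKM (SD, n = 6) for Abcg1, 350 ± 319 for Apoe and 183 ± 77.6 for Lpl, and the ranges of these neighbours overlapped. Abca1 (38.6 ± 13.5 FPKM), Nr1h2 (27.9 ± 2.495), Apoc1 (19.0 ± 12.2) and Nr1h3 (17.6 ± 3.67) followed with overlapping ranges, and Apoc2 (3.45 ± 4.36) was below them. TR-AΦ of 32-weeks had the order Abcg1 (691 ± 34.9 FPKM), Lpl (259 ± 67.9), Apoe (71.3 ± 23.1), Abca1 (50.4 ± 11.5), Nr1h2 (33.7 ± 4.17), Apoc1 (33.0 ± 16.9), Nr1h3 (18.6 ± 4.03) and Apoc2 (0.950 ± 1.94). Here Abcg1 and Lpl did not overlap with the genes below them, Apoe to Nr1h3 overlapped in turn, and Apoc2 was below them. BM-AΦ had 655 ± 39.1 FPKM of Abcg1, 262 ± 68.7 of Lpl and 190 ± 114 of Apoe, followed by Abca1 (38.1 ± 12.7) and Nr1h2 (32.6 ± 3.14), with overlap from Lpl to Nr1h2. Nr1h3 (20.0 ± 5.47 FPKM) stood alone, and Apoc2 (1.10 ± 0.795) and Apoc1 (0.927 ± 1.72) were lowest and overlapped.

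In CD45.2 monocytes of 4-weeks, Apoe had 1452 ± 334 FPKM (SD, n = 6) and Apoc2 171 ± 52.2, each apart from the gene below it. Abcg1 (47.2 ± 14.4 FPKM) and Nr1h2 (32.5 ± 4.34) overlapped, as did Abca1 (14.5 ± 3.94), Apoc1 (11.1 ± 2.84), Nr1h3 (8.87 ± 1.79) and Lpl (6.55 ± 2.05). At 32-weeks Apoe was at 3247 ± 1118 FPKM in CD45.2 monocytes and 2035 ± 667 in CD45.1 monocytes, again above all the others without overlap. Abca1 moved from the fifth place at 4-weeks to the third in CD45.2 monocytes of 32-weeks (57.4 ± 23.0 FPKM), where its range overlapped those of Apoc2 (71.8 ± 29.3) and Abcg1 (53.7 ± 24.6). Lpl had 16.0 ± 8.01 FPKM in these monocytes and 7.69 ± 4.09 in CD45.1 monocytes. In CD45.1 monocytes Apoc2 (102 ± 20.5 FPKM) was second without overlap, and Abcg1 (40.2 ± 8.34), Nr1h2 (31.0 ± 5.20), Abca1 (25.5 ± 12.1), Apoc1 (8.45 ± 1.78), Lpl and Nr1h3 (6.92 ± 4.71) overlapped in turn.

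**Figure D1:**
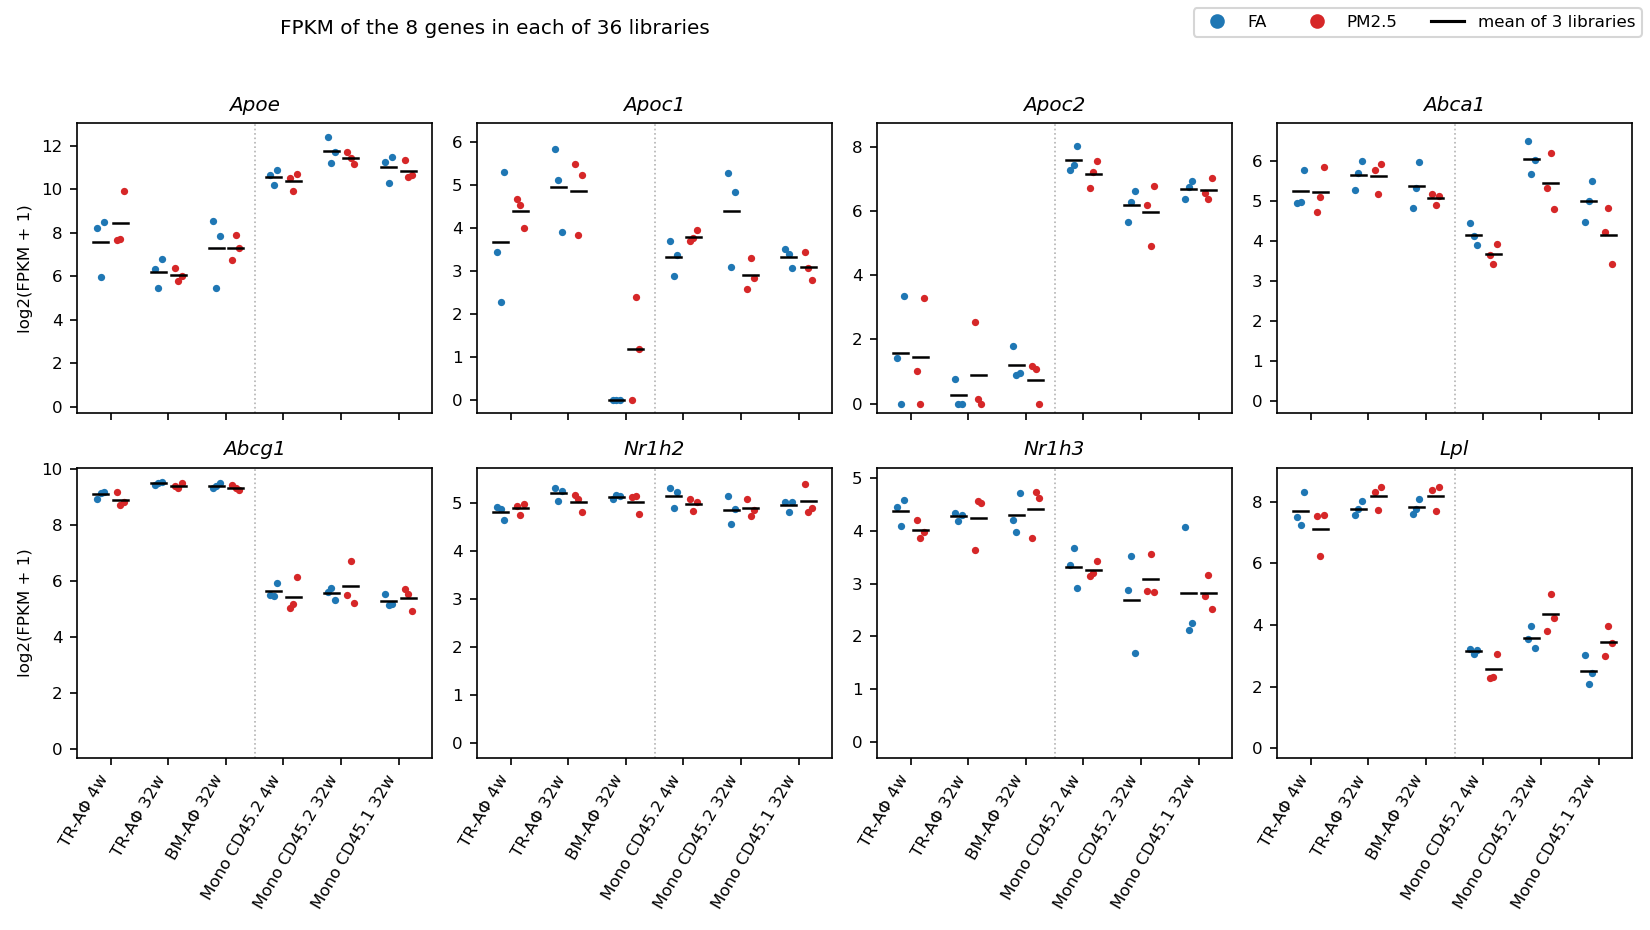
Log2(FPKM + 1) of each gene (1 panel each, axes of different length) in the 36 libraries, by population on the horizontal axis, with FA in blue, PM2.5 in red and a bar at the mean of 3 libraries. Abcg1 and Lpl lie higher in every AΦ library (to the left of the dotted line) than in any monocyte library, Apoc2 lies lower in every AΦ library, and Apoc1 is listed at 0 in 4 of 6 BM-AΦ libraries.

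Apoe and Apoc2 were lower, and Abcg1, Nr1h3 and Lpl higher, in AΦ than in monocytes of the same time and origin in each of 3 comparisons, while Apoc1 and Abca1 depended on the comparison. In TR-AΦ against CD45.2 monocytes of 4-weeks, 6 of the 8 genes passed the threshold of an adjusted p of 0.05 in limma, 4 higher and 2 lower, where 48.2% of all 13307 genes tested passed (22.6% higher and 25.5% lower). At 32-weeks 6 passed (4 higher, 2 lower, where 47.3% of all genes passed, 23.6% higher and 23.7% lower), and 7 passed in BM-AΦ against CD45.1 monocytes (4 higher, 3 lower, where 50.9% of all genes passed, 27.1% higher and 23.8% lower). The libraries of the compared populations did not overlap for 6, 5 and 5 of the 8 genes, where 29.8%, 26.9% and 30.8% of all genes did not. In sorted bulk RNA, fewer cells of a type and less RNA per cell cannot be told apart. These comparisons are differences of log2(FPKM + 1), which understate changes of low values.

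Apoe, the carrier that macrophages secrete, was 968.8 FPKM at its lowest, 1535 at the median and 1871 at its highest in CD45.2 monocytes of 4-weeks, and 61.7, 251.4 and 967.7 FPKM in TR-AΦ. The populations came within 2 FPKM of each other without overlapping, because TR-AΦ of PM2.5 replicate 2 stood far above the other TR-AΦ libraries. The mean was 4.15-fold lower in TR-AΦ (log2 difference -2.47, SE 0.46, adjusted p 6.4e-05 in limma). At 32-weeks CD45.2 monocytes had 2297 to 5342 FPKM (median 3058) and TR-AΦ 43.5 to 109 FPKM (median 70.7), a 45.5-fold difference in means (log2 difference -5.49, SE 0.46, adjusted p 1.31e-10). BM-AΦ had 42.5 to 367 FPKM (median 194) and CD45.1 monocytes 1232 to 2873 FPKM (median 2014), with a 10.7-fold difference (log2 difference -3.63, SE 0.46, adjusted p 2.28e-07). Summed FPKM of the interstitial macrophage markers had a median of 108 in TR-AΦ of 4-weeks, 33.1 in TR-AΦ of 32-weeks and 157 in BM-AΦ, against 167, 1672 and 451 in the monocytes compared with them, and their part in the Apoe differences was not tested. Of the 9 markers, 9, 5 and 3 had a mean of at least 1 FPKM in these AΦ populations, and Folr2 was listed at 0 in 3 of 6 BM-AΦ libraries. In BM-AΦ, C1qa, C1qb and C1qc had means of 64.8, 47.4 and 43.7 FPKM and made up most of the sum. At 4-weeks these were similar in TR-AΦ (65.5, 55.9 and 47.2 FPKM) and CD45.2 monocytes (66.2, 55.8 and 45.8 FPKM). Cd163, Folr2 and Lyve1 had higher means in these TR-AΦ (3.52, 3.296 and 2.72 FPKM) than in those monocytes (1.76, 0.853 and 1.03 FPKM). At 32-weeks all of these genes had lower means in AΦ than in the monocytes compared with them.

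Apoc2, the activator of lipoprotein lipase, was listed at 0 in 6 of the 18 AΦ libraries and reached 9.27 FPKM in the highest, whereas monocytes had 29.0 to 260 FPKM. No AΦ library overlapped with a monocyte library. The log2 differences were -5.86 at 4-weeks (adjusted p 2.31e-10), -5.48 at 32-weeks (adjusted p 9.47e-10) and -5.69 for BM-AΦ (adjusted p 4.81e-10, all limma). At 4-weeks Apoc1, the other small apolipoprotein of the cluster, had 3.84 to 38.5 FPKM in TR-AΦ and 6.41 to 14.5 FPKM in CD45.2 monocytes and did not pass (log2 difference 0.48, adjusted p 0.389). At 32-weeks TR-AΦ had 13.4 to 56.3 FPKM and CD45.2 monocytes 5.03 to 37.8 FPKM, a higher mean in TR-AΦ with overlapping libraries (log2 difference 1.25, SE 0.44, adjusted p 0.0200). This call was lost with a pseudocount of 0.1 (adjusted p 0.0770), in a model of these groups alone (0.0653), and without TR-AΦ replicate 0 of FA (0.0680) or of PM2.5 (0.0570) or CD45.2 monocytes FA replicate 1 (0.0838). BM-AΦ had 0 to 4.29 FPKM of Apoc1, below all CD45.1 monocyte libraries at 5.90 to 10.5 FPKM (log2 difference -2.62, SE 0.44, adjusted p 1.38e-05).

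Abcg1, the transporter that loads lipoprotein particles, ranged from 411.5 to 575 FPKM in TR-AΦ of 4-weeks (median 525), from 638 to 727 FPKM in TR-AΦ of 32-weeks (median 695) and from 605 to 710.0 FPKM in BM-AΦ (median 651). Monocyte libraries had 29.7 to 103 FPKM, and only CD45.2 monocytes of PM2.5 replicate 1 at 32-weeks exceeded 69 FPKM. The means were 10.8-fold higher in TR-AΦ at 4-weeks (log2 difference 3.44, SE 0.20, adjusted p 4.9e-14), 12.9-fold higher at 32-weeks (3.75, adjusted p 1.44e-14) and 16.3-fold higher in BM-AΦ (4.01, adjusted p 2.14e-15, all limma). Abca1, which loads lipid-poor apolipoproteins, had 25.6 to 57.1 FPKM in TR-AΦ of 4-weeks and 9.81 to 21.1 FPKM in CD45.2 monocytes, without overlap (2.66-fold, log2 difference 1.32, SE 0.27, adjusted p 0.000183). At 32-weeks TR-AΦ (35.3 to 62.9 FPKM) lay within the range of CD45.2 monocytes (27.0 to 89.6 FPKM), and the difference was -0.11 on the log2 scale with an interval from -0.67 to 0.44. The sign turned when libraries were rescaled to a common sum or with a single library left out. BM-AΦ (27.7 to 62.5 FPKM) and CD45.1 monocytes (9.79 to 44.8 FPKM) overlapped, and their difference passed narrowly (0.65, SE 0.27, adjusted p 0.0472). It no longer passed without a filter on low values (adjusted p 0.0844), in a model of these groups alone (0.0909), without replicate 2 of every group (0.187), or without any 1 of 9 of the 12 libraries (BM-AΦ FA replicates 1 and 2, BM-AΦ PM2.5 replicates 0, 1 and 2, CD45.1 monocytes FA replicates 0 and 1 and PM2.5 replicates 0 and 2), which gave 0.0519 to 0.162. The 2 transporters thus differed in their ratio. Abcg1 was 16.4 times Abca1 at the median of the AΦ libraries (7.75 to 22.7) and 1.86 times at the median of the monocyte libraries (0.539 to 4.82), and these ranges did not overlap.

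Nr1h2 was the steadiest gene, with 23.9 to 38.7 FPKM in AΦ (median 32.3) and 22.4 to 40.9 FPKM in monocytes (median 29.9). Its log2 differences between AΦ and monocytes were -0.21 (interval -0.44 to 0.029), 0.24 (0.0015 to 0.47) and 0.080 (-0.16 to 0.32), with adjusted p of 0.143, 0.0923 and 0.596 in limma. With libraries rescaled to a common sum the differences were 0.10, 0.40 and 0.45, and the last 2 then passed (adjusted p 0.00923 and 0.00326). At 32-weeks the difference in CD45.2 cells also passed with the replicate number as a block (adjusted p 0.0334), with a block for each exposure and replicate number (0.0330) and without CD45.2 monocytes FA replicate 0 (0.0290). Nr1h3, the receptor enriched in macrophages, had 13.6 to 23.0 FPKM in TR-AΦ of 4-weeks (median 16.7) and 6.58 to 11.8 FPKM in CD45.2 monocytes (median 8.70), without overlap. It was 1.98-fold higher in TR-AΦ (log2 difference 0.91, SE 0.29, adjusted p 0.0111), and without replicate 2 of every group this did not pass (0.81, adjusted p 0.0834). TR-AΦ of 32-weeks had 11.5 to 22.7 FPKM against 2.22 to 10.8 FPKM in CD45.2 monocytes (2.63-fold, log2 difference 1.37, adjusted p 0.00031). BM-AΦ had 13.6 to 25.8 FPKM against 3.35 to 15.9 FPKM in CD45.1 monocytes (2.90-fold, log2 difference 1.54, adjusted p 7.48e-05), where FA replicate 0 of the monocytes overlapped with BM-AΦ. LXRα transcripts were 0.555 times those of LXRβ at the median AΦ library (0.328 to 0.963) and 0.230 times at the median monocyte library (0.0788 to 0.512).

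Lpl, the lipase, was 74.8 to 315 FPKM in TR-AΦ of 4-weeks (median 183) and 3.88 to 8.42 FPKM in CD45.2 monocytes (median 7.42). The mean was 27.9-fold higher in TR-AΦ (log2 difference 4.54, SE 0.26, adjusted p 3.92e-14). At 32-weeks TR-AΦ had 188 to 358 FPKM and CD45.2 monocytes 8.56 to 30.9 FPKM (16.2-fold, log2 difference 4.01, adjusted p 5.88e-13), and BM-AΦ had 193 to 356 FPKM and CD45.1 monocytes 3.27 to 14.7 FPKM (34.1-fold, log2 difference 5.01, adjusted p 5.66e-15, all limma). No AΦ library overlapped with a monocyte library. Lpl and its activator Apoc2 thus differed in opposite directions between the cell types.

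**Figure D2:**
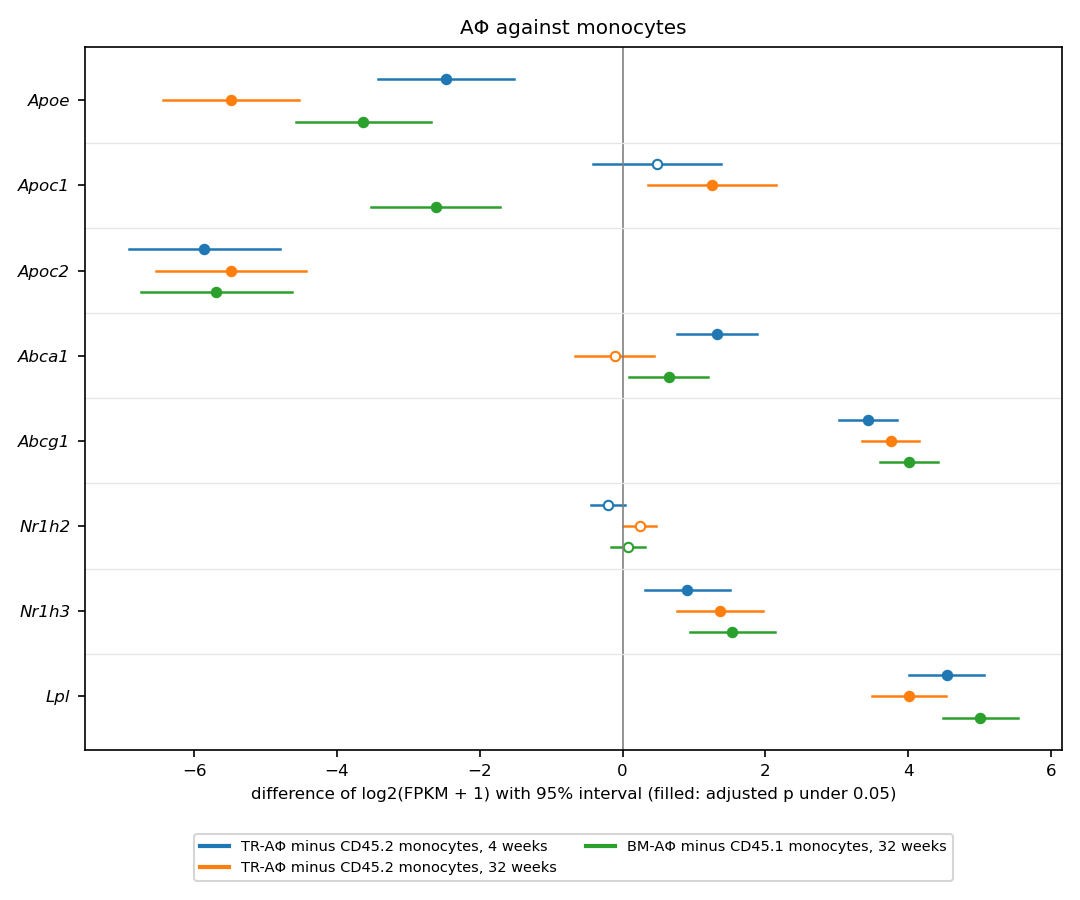
Difference of log2(FPKM + 1) between AΦ and monocytes of the same time and origin for each gene, with 95% intervals from limma; filled points have an adjusted p under 0.05, and values above 0 are higher in AΦ. Apoc2 lies between -5.86 and -5.48, Abcg1 between 3.44 and 4.01, and Nr1h2 within 0.24 of 0.

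Of 71 other genes of these pathways, 45 were tested against monocytes. At 4-weeks 15 were higher and 19 lower in TR-AΦ, at 32-weeks 18 were higher and 10 lower, and in BM-AΦ 17 were higher and 14 lower. Of all 13307 genes tested, 48.2%, 47.3% and 50.9% passed in these comparisons. The median log2 differences of the 45 genes were -0.16, 0.14 and 0.070, where the medians of all genes were -0.019, 0 and 0.028. At 4-weeks these were 3 higher and 5 lower of 11 receptor partners and regulators, 3 and 4 of 12 other LXR targets, 5 and 6 of 14 genes of cholesterol uptake, esterification and lysosomal release, 4 and 2 of 6 lipase genes, and 0 and 2 of 2 other apolipoprotein genes. Among the lipase genes, Angptl4, which encodes an inhibitor of lipoprotein lipase, had 50.3 ± 17.9 FPKM (SD, n = 6) in TR-AΦ of 4-weeks against 0.0845 ± 0.119 in CD45.2 monocytes (log2 difference 5.49, adjusted p 1.3e-16). Lipe, the hormone-sensitive lipase, had 3.59 ± 1.14 FPKM against 17.7 ± 2.57 (log2 difference -2.05, adjusted p 6.25e-11). Of the genes for uptake and release of cholesterol, Nceh1, a cholesteryl ester hydrolase, had 245 ± 35.9 against 18.4 ± 1.27 FPKM (log2 difference 3.65, adjusted p 1.42e-15). Ch25h, which makes the LXR ligand 25-hydroxycholesterol, was also higher (22.0 ± 12.1 against 1.23 ± 1.34 FPKM, adjusted p 7.14e-07), and Cyp27a1, which makes another oxysterol, was lower (1.28 ± 0.933 against 10.4 ± 0.449 FPKM, adjusted p 8.4e-13). Known LXR targets were found in both directions. Mertk, an efferocytosis receptor, had 68.1 ± 12.8 against 1.08 ± 0.974 FPKM (log2 difference 5.16, adjusted p 6.24e-12), while Arl4c, a small GTPase, had 15.6 ± 9.68 against 80.0 ± 27.5 FPKM (log2 difference -2.40, adjusted p 1.57e-08), and Smpdl3a, a phosphodiesterase, had 42.7 ± 10.6 against 153 ± 29.9 FPKM. In each of these genes the libraries of 4-weeks did not overlap. At 32-weeks Pparg, a nuclear receptor that maintains AΦ, had 74.97 ± 7.59 FPKM in TR-AΦ against 8.75 ± 4.60 in CD45.2 monocytes (log2 difference 3.13, adjusted p 1.44e-09), and Ncoa3, a nuclear receptor coactivator, had 13.6 ± 1.25 against 32.1 ± 6.72 FPKM (log2 difference -1.16, adjusted p 1.22e-08).

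Libraries of CD45.2 monocytes had more Apoe, Abca1 and Lpl transcripts and less Apoc2 at 32-weeks than at 4-weeks. These 4 of the 8 genes passed the threshold, 3 higher and 1 lower at 32-weeks, where 14.9% of all 12856 genes tested passed (7.06% higher and 7.83% lower). Abca1 had 21.1, 16.5 and 13.95 FPKM with FA and 11.6, 9.81 and 14.3 FPKM with PM2.5 at 4-weeks, and 89.6, 50.3 and 64.3 FPKM with FA and 39.5, 73.6 and 27.0 FPKM with PM2.5 at 32-weeks. Every library of 32-weeks was above every library of 4-weeks (3.95-fold, log2 difference 1.84, SE 0.28, adjusted p 0.000775 in limma). Apoe had 1613, 1160 and 1871 FPKM with FA and 1457, 968.8 and 1644 FPKM with PM2.5 at 4-weeks, and 5342, 2385 and 3342 FPKM with FA and 3319, 2798 and 2297 FPKM with PM2.5 at 32-weeks. The times did not overlap (2.24-fold, log2 difference 1.13, SE 0.26, adjusted p 0.01004), and without replicate 2 of every group the difference was 1.37 and did not pass (adjusted p 0.0529). Lpl was 3.88 to 8.42 FPKM at 4-weeks and 8.56 to 30.9 FPKM at 32-weeks, without overlap (2.44-fold, log2 difference 1.10, SE 0.24, adjusted p 0.0067). Apoc2 had 104 to 260 FPKM at 4-weeks and 29.0 to 108 FPKM at 32-weeks, with PM2.5 replicate 2 of 32-weeks reaching into the range of 4-weeks (log2 difference -1.31, SE 0.29, adjusted p 0.00767). The libraries of the 2 times did not overlap for 3 of the 8 genes, and for 7.72% of all genes.

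The summed interstitial macrophage markers moved with these results. They were 3.66 to 416 FPKM in CD45.2 monocytes of 4-weeks (median 167) and 903 to 3457 FPKM at 32-weeks (median 1672), without overlap. Replicate 2 of 4-weeks had the lowest sum with FA (3.66 FPKM) and with PM2.5 (4.30 FPKM) and the highest Apoe of its group (1871 and 1644 FPKM). The same libraries had summed neutrophil markers (7 genes) of 381 and 1104 FPKM, where the other libraries of 4-weeks had 43.7 to 78.8 FPKM. At 32-weeks the neutrophil markers summed to 24.0 to 40.7 FPKM, without overlap with 4-weeks, and Ly6g, Ngp and Camp were at 0 in all 6 libraries. Without FA replicate 2 of 4-weeks, Apoe, Abca1, Lpl and Apoc2 had log2 differences with time of 1.21, 1.78, 1.11 and -1.19, and without PM2.5 replicate 2 of 1.21, 1.91, 1.23 and -1.20, and each still passed. Of the 9 markers, 9 had a mean of at least 1 FPKM at 32-weeks where 7 did at 4-weeks, when Folr2 was listed at 0 in 1 library. C1qa, a complement component of macrophages named after its values were seen, had a mean of 66.2 FPKM at 4-weeks and 674 FPKM at 32-weeks. It is 1 of the 9 markers, so its rise is part of the sum given above. The monocyte markers had a summed median of 4367 and then 2342 FPKM. Siglecf was 0.179 to 1.62 FPKM at 4-weeks and 1.36 to 8.99 FPKM at 32-weeks, and the 11 alveolar macrophage markers summed to 404 to 694 FPKM and 427 to 1704 FPKM. PM2.5 replicate 1 of 32-weeks had the highest of these sums and the highest Lpl of all monocyte libraries (30.9 FPKM), and without it the Lpl difference with time was 0.94 and passed (adjusted p 0.0188). Treml4, Ace, Nr4a1 and Cx3cr1 had means of 214, 196, 1876 and 173 FPKM in CD45.2 monocytes of 4-weeks. At 32-weeks these means were 38.8, 64.9, 783 and 113 FPKM. Ly6c2 and Ccr2 had 310 and 359 FPKM at 4-weeks, then 213 and 348 FPKM, so monocyte genes fell unequally. The part of other cell types, or of kinds of monocyte, in the changes with time was not tested.

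Of the 43 other pathway genes tested in monocytes, 7 were higher and 8 lower at 32-weeks, where 7.06% of all genes were higher and 7.83% lower. The median log2 difference was -0.052, where that of all genes was -0.048. Mertk had 23.4 ± 15.4 FPKM (SD, n = 6) at 32-weeks and 1.08 ± 0.974 at 4-weeks (log2 difference 3.40, adjusted p 0.000559 in limma). Pltp, the phospholipid transfer protein and an LXR target, had 140 ± 36.1 against 70.0 ± 16.9 FPKM (0.99, adjusted p 0.0107). The cholesterol handling genes Nceh1 (42.9 ± 10.5 against 18.4 ± 1.27 FPKM, 1.14, adjusted p 0.00122) and Npc1, which exports cholesterol from lysosomes (36.1 ± 8.03 against 22.0 ± 2.08 FPKM, 0.67, adjusted p 0.0147), were also higher. Genes that fell included Tgm2, a transglutaminase (78.1 ± 27.7 against 279 ± 100 FPKM, -1.81, adjusted p 0.00127), Pparg (8.75 ± 4.60 against 32.3 ± 15.5 FPKM, -1.80, adjusted p 0.00634) and Apobr, a lipoprotein receptor (20.7 ± 3.87 against 29.2 ± 2.83 FPKM, -0.49, adjusted p 0.0150).

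TR-AΦ were compared between times within each exposure. None of the 8 genes passed in FA (0 genes, where 0.782% of all 12665 genes passed, with 1535 at an unadjusted p under 0.05) or in PM2.5 (0 genes, where 1.05% passed, with 1928 at an unadjusted p under 0.05). Apoe had 294, 61.7 and 360 FPKM with FA and 205, 208 and 967.7 FPKM with PM2.5 at 4-weeks. At 32-weeks it had 78.3, 43.5 and 109 FPKM with FA and 80.9, 53.7 and 63.2 FPKM with PM2.5. The times overlapped in FA through FA replicate 1 of 4-weeks (log2 difference -1.37, SE 0.82, adjusted p 0.524), and did not overlap in PM2.5, where the means differed 6.99-fold (-2.40, SE 0.82, adjusted p 0.182). Without PM2.5 replicate 2 of 4-weeks, the library at 967.7 FPKM, the log2 difference was -1.65 (adjusted p 0.403). Interstitial macrophage markers varied alongside, with sums of 111, 38.2 and 196 FPKM with FA and 105, 74.4 and 587 FPKM with PM2.5 at 4-weeks, against 19.0 to 75.6 FPKM at 32-weeks. The library with the highest Apoe was also that with the highest marker sum at 4-weeks, and the part of these cells in the Apoe level was not tested.

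Each TR-AΦ library of 32-weeks had more Abcg1 than any library of 4-weeks of the same exposure, but the difference did not pass (FA 0.39, SE 0.14, adjusted p 0.251, and PM2.5 0.51, SE 0.14, adjusted p 0.0932). Without PM2.5 replicate 0 of 4-weeks the PM2.5 difference was 0.65 and passed (adjusted p 0.0300). In FA, Nr1h2 had 29.3, 28.2 and 23.9 FPKM at 4-weeks and 38.7, 32.0 and 37.0 FPKM at 32-weeks (0.39, SE 0.13, adjusted p 0.231). In PM2.5, Lpl had 185, 74.8 and 189 FPKM at 4-weeks and 321, 211 and 358 FPKM at 32-weeks (1.07, SE 0.36, adjusted p 0.183), and it passed with the replicate number as a block (adjusted p 0.0395). The groups did not overlap for 2 of the 8 genes in FA and for 3 in PM2.5, where 15.6% and 18.3% of all genes did not. Srebf1, which encodes a regulator of fatty acid synthesis and is an LXR target, was the 1 of 44 other pathway genes that passed in PM2.5 (36.6 ± 2.47 FPKM at 32-weeks, 21.2 ± 3.32 at 4-weeks, n = 3, log2 difference 0.77, adjusted p 0.0231 in limma), and 0 of 44 passed in FA.

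The change with time was compared directly between TR-AΦ and CD45.2 monocytes. It differed for 2 of the 8 genes, where 7.88% of all 13307 genes tested passed (4.35% with a difference below 0, the direction of both genes). For Apoe the difference of the log2 changes, AΦ minus monocytes, was -3.02 (SE 0.65, adjusted p 0.00366 in limma), the mean at 32-weeks being below that of 4-weeks in TR-AΦ and above it in monocytes. Without replicate 2 of every group it was -2.79 and did not pass (adjusted p 0.0786). For Abca1 it was -1.43 (SE 0.38, adjusted p 0.0177). Nr1h2 had a difference of 0.45 that did not pass (adjusted p 0.0977), and passed with the replicate number as a block (0.0262). Of 45 other pathway genes, 7 had a difference above 0 that passed and 2 had one below 0.

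**Figure D3:**
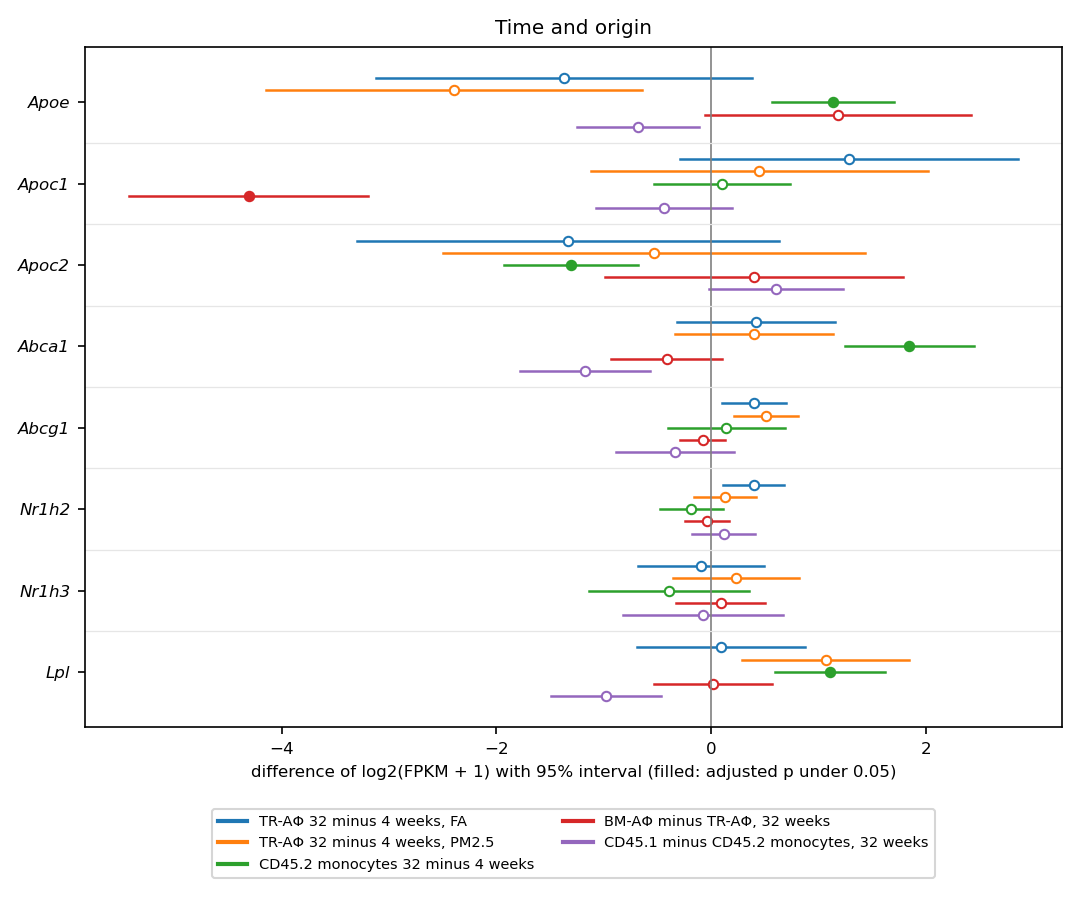
Difference of log2(FPKM + 1) for each gene between times and between origins, with 95% intervals from limma; filled points have an adjusted p under 0.05. Filled points are Apoe (1.13), Apoc2 (-1.31), Abca1 (1.84) and Lpl (1.10) in CD45.2 monocytes, 32 minus 4 weeks, and Apoc1 (-4.31) in BM-AΦ minus TR-AΦ.

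**Figure D4:**
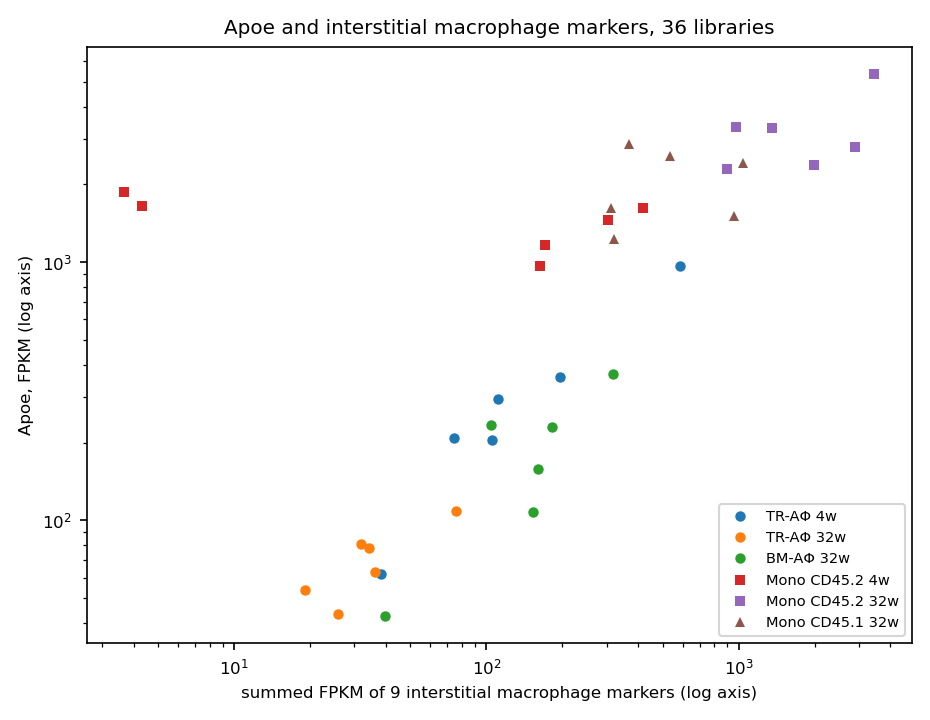
Apoe FPKM against the summed FPKM of 9 interstitial macrophage markers in 36 libraries, both on log axes, with 1 point per library and 1 colour and shape per population. TR-AΦ of 32-weeks lie at the lower left (19.0 to 75.6 FPKM of markers) and CD45.2 monocytes of 32-weeks at the upper right (903 to 3457 FPKM), and replicate 2 of CD45.2 monocytes of 4-weeks stands apart at the upper left (3.66 and 4.30 FPKM).

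Origin was compared at 32-weeks, where AΦ and monocytes of both the recipient and the donor marrow were present. Apoc1 was the 1 of the 8 genes that passed between BM-AΦ and TR-AΦ, where 0.316% of all 12665 genes passed (0.182% lower in BM-AΦ). It was listed at 0 in all 3 BM-AΦ libraries of FA and had 0, 4.29 and 1.27 FPKM in those of PM2.5, whereas TR-AΦ had 56.3, 33.9 and 13.9 FPKM with FA and 43.6, 13.4 and 36.8 FPKM with PM2.5. All BM-AΦ libraries were below all TR-AΦ libraries (log2 difference -4.31, SE 0.52, adjusted p 0.00149 in limma), and the groups did not overlap for 1 of the 8 genes and 1.37% of all genes. In a fit with a block for each exposure and replicate number, in which 22 genes passed in all, the difference was the same and did not pass (adjusted p 0.0836). A value of exactly 0 can be a failed estimate. The peak of low FPKM values multiplied by length in kilobases was read from genes with 1 transcript over 1500 bases. It was 0.116 to 0.19 in BM-AΦ libraries and 0.19 to 0.279 in TR-AΦ libraries of 32-weeks. Apoc1 has 4 transcripts of at most 532 bases, and its own resolution was not measured. CD45.1 monocytes had 10.5, 9.60 and 7.44 FPKM with FA and 9.82, 7.45 and 5.90 FPKM with PM2.5, and none of the monocyte libraries was at 0. Summed dendritic cell markers (7 genes) were 16.4 to 66.7 FPKM in BM-AΦ and 5.82 to 14.3 FPKM in TR-AΦ of 32-weeks, without overlap. Summed monocyte markers were 422 to 740 FPKM in BM-AΦ (median 596) and 297 to 554 FPKM in TR-AΦ (median 340), and the part of either cell type in the Apoc1 difference was not tested.

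Its neighbours Apoe and Apoc2 did not pass. Apoe had 367, 42.5 and 231 FPKM in BM-AΦ of FA and 107, 233 and 158 FPKM in those of PM2.5, against 43.5 to 109 FPKM in TR-AΦ (log2 difference 1.18, SE 0.58, adjusted p 0.705). Interstitial macrophage markers summed to 319, 39.7 and 182 FPKM in BM-AΦ of FA and 154, 105 and 160 FPKM in those of PM2.5, so FA replicate 1 was lowest in both. Of the 9 markers, 3 (C1qa, C1qb and C1qc) had a mean of at least 1 FPKM in BM-AΦ, each higher than in TR-AΦ. Cd163, Folr2 and Lyve1 had lower means in BM-AΦ (0.530, 0.292 and 0.821 FPKM) than in TR-AΦ of 32-weeks (1.28, 0.819 and 1.16 FPKM). The part of these cells in the Apoe values was not tested. Apoc2 was at 0 to 2.46 FPKM in BM-AΦ and 0 to 4.87 FPKM in TR-AΦ (0.40, interval -0.99 to 1.79).

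The transporters, receptors and lipase had intervals that included 0 between BM-AΦ and TR-AΦ. These were -0.42 for Abca1 (-0.93 to 0.10), -0.079 for Abcg1 (-0.29 to 0.13), -0.041 for Nr1h2 (-0.24 to 0.16), 0.090 for Nr1h3 (-0.32 to 0.51) and 0.017 for Lpl (-0.53 to 0.57), with adjusted p from 0.821 to 1. Lpl values of BM-AΦ and TR-AΦ with the same exposure and replicate number were nearly equal. They were 193 and 188, 216 and 215, and 271 and 261 FPKM in FA, and 330 and 321, 206 and 211, and 356 and 358 FPKM in PM2.5, so that each pair differed by 0.468% to 3.87% of its mean while the pairs ranged from 188 to 358 FPKM. Such pairs were read for Lpl alone. Over all 12665 genes, with group means removed, same-numbered libraries had correlations of 0.063, 0.048 and 0.044 in FA. In PM2.5 these correlations were -0.023, 0.026 and 0.045. Both populations of an exposure came from the same 3 mice, and whether a shared number marks a shared mouse is not given in the sources used here. Of 44 other pathway genes 0 passed, and 944 of all genes had an unadjusted p under 0.05.

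Between CD45.1 and CD45.2 monocytes, 0 of the 8 genes passed (0.669% of all 12856 genes did, and 1233 had an unadjusted p under 0.05). Abca1 had 21.4, 31.4 and 44.8 FPKM with FA and 17.8, 27.7 and 9.79 FPKM with PM2.5 in CD45.1 monocytes, overlapping with the 27.0 to 89.6 FPKM of CD45.2 monocytes (log2 difference -1.17, SE 0.28, adjusted p 0.0920 in limma). It passed with libraries rescaled to a common sum (-1.26, adjusted p 0.0288) and without CD45.2 monocytes PM2.5 replicate 2 (-1.34, adjusted p 0.0482). Lpl had a difference of -0.98 (SE 0.24, adjusted p 0.104) and Apoe of -0.68 (SE 0.26, adjusted p 0.376). The interstitial macrophage markers summed to 313 to 1039 FPKM in CD45.1 monocytes, where CD45.2 monocytes had 903 to 3457 FPKM, and their part was not tested. Of 43 other pathway genes 0 passed.

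The difference by origin was also compared between the cell types. Apoc1 was the 1 of the 8 genes that passed, where 1.08% of all 13307 genes did (0.158% with a difference below 0). Its difference of origin was lower by 3.87 on the log2 scale in AΦ than in monocytes (-3.87, SE 0.62, adjusted p 0.000896 in limma). Apoe had a value of 1.86 (SE 0.65, adjusted p 0.236), which passed in the fit with a block for each exposure and replicate number (adjusted p 0.0434) and without BM-AΦ FA replicate 1 (2.32, adjusted p 0.0414). Lpl had a value of 0.996 (SE 0.36, adjusted p 0.252).

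PM2.5 was compared with FA in each of the 6 populations, the question the exposure was designed for. None of the 8 genes passed in any of them. In TR-AΦ 0 passed at 4-weeks (0.0079% of all genes did, and 372 had an unadjusted p under 0.05) and 0 at 32-weeks (0% and 396), and in BM-AΦ 0 passed (0.0158% and 259). In CD45.2 monocytes 0 passed at 4-weeks (0.00778% and 272) and 0 at 32-weeks (0% and 547), and in CD45.1 monocytes 0 passed (0% and 609). Of the 8 genes, 0 had an unadjusted p under 0.05 in the AΦ comparisons, and 3 differences did in those of monocytes, 2 of them for Lpl. Lpl of CD45.1 monocytes had 7.16, 3.27 and 4.42 FPKM with FA and 6.998, 14.7 and 9.64 FPKM with PM2.5, so 1 FA library lay within the PM2.5 range (log2 difference 0.94, SE 0.34, adjusted p 0.946 in limma). Lpl of CD45.2 monocytes at 32-weeks had 10.6, 14.7 and 8.56 FPKM with FA and 13.04, 30.9 and 17.9 FPKM with PM2.5 (0.76, SE 0.34, adjusted p 1). The alveolar macrophage markers summed to 446, 479 and 809 FPKM in these FA libraries and to 427, 1704 and 926 FPKM in the PM2.5 libraries, and without PM2.5 replicate 1 the Lpl difference was 0.44 (adjusted p 0.958). In CD45.1 monocytes these sums were 273 to 661 FPKM in FA and 340 to 839 FPKM in PM2.5, and their part in the Lpl values was not tested. Apoc1 of CD45.2 monocytes at 32-weeks had 37.8, 7.59 and 27.5 FPKM with FA and 5.03, 8.81 and 6.18 FPKM with PM2.5 (-1.49, SE 0.42, adjusted p 1). Without FA replicate 1, which overlapped with PM2.5, the Apoc1 difference was -2.15 and passed (adjusted p 0.0174).

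In CD45.2 monocytes of 4-weeks the exposures did not overlap for 2 of the 8 genes, where 6.57% of all genes did not. Apoc1 had 11.93, 6.41 and 9.35 FPKM with FA and 11.95, 12.5 and 14.5 FPKM with PM2.5, and Lpl had 8.42, 7.45 and 8.11 FPKM with FA and 3.88, 4.03 and 7.40 FPKM with PM2.5. Lpl was thus below the FA libraries in PM2.5 at 4-weeks, whereas at 32-weeks its mean was above FA, and this turn was not tested. In tests of whether the effect of exposure differed, 0 of 8 genes passed between times in TR-AΦ (0.0079% of all genes, 380 with an unadjusted p under 0.05) and 0 of 8 between BM-AΦ and TR-AΦ (0.0158% of all genes, 240 with an unadjusted p under 0.05). Of the other pathway genes, 0 passed in any of the 6 comparisons of exposure.

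**Figure D5:**
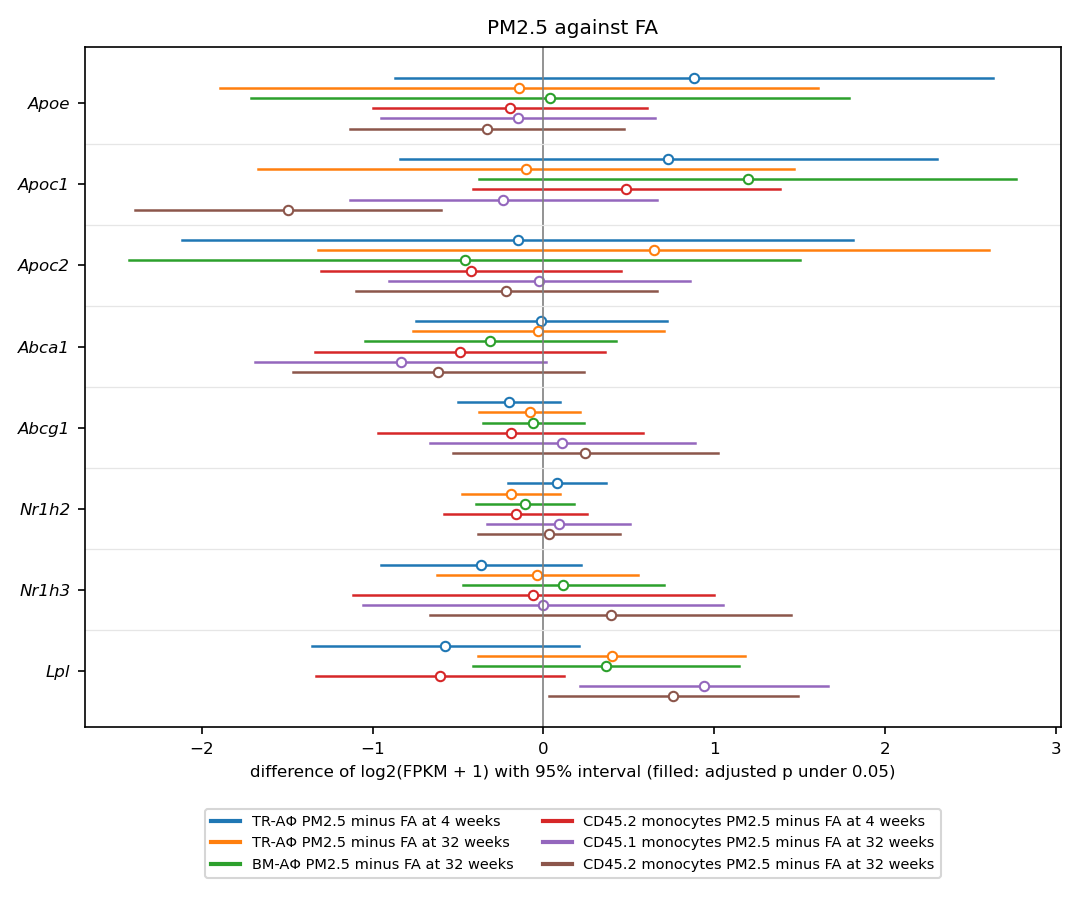
Difference of log2(FPKM + 1) between PM2.5 and FA for each gene in the 6 populations, with 95% intervals from limma. No point is filled, so none had an adjusted p under 0.05; the intervals are narrowest for Nr1h2 and for Abcg1 in AΦ, and widest for Apoe, Apoc1 and Apoc2 in AΦ.

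The genes whose log2(FPKM + 1) followed each gene most closely were read over the 36 libraries, where points share cell type and mouse, so the values describe these libraries. Apoe was most like Socs3 (Pearson r 0.969), Apoc2 most like Fyb (0.981) and Irf7 (0.981), Abcg1 most like Klhdc4 (0.992) and Lpl most like Ly75 (0.987). Lower values were found for Nr1h3 with Plin2 (0.897), Abca1 with Glul (0.856), Nr1h2 with Cebpb (0.777) and Apoc1 with Meis1 (0.754). Within the 8 genes, Apoe and Apoc2 had r 0.899 and Apoe and Abcg1 had r -0.895, while Apoe and Apoc1 had r 0.079. After the mean of each group was removed, Apoe over the 18 AΦ libraries was most like C1qc (0.912), C1qb (0.905) and Adam19 (0.896), and over the 18 monocyte libraries it was most like Rtn4 (0.922). Abcg1 over the AΦ libraries was then most like Lrp10 (0.941).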

How the data were processed

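RNA was extracted from sorted cells with the RNeasy Micro kit and made into libraries with the SMART-Seq Stranded mRNA kit, per the labels. The authors' processing notes name STAR, Cufflinks, Cuffdiff and mm10, and the deposited values are FPKM per gene, scaled by the authors for depth and transcript length. No counts were analysed, so the depth behind a value is unknown, and exact values of 0 were kept. No libraries were duplicates (0 pairs, highest correlation 0.940).

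Log2(FPKM + 1) was analysed with limma 3.58.1 in R 4.3.3 (trend, 1 mean per group) over genes averaging 1 FPKM or more, which were 12665 in the 18 AΦ libraries, 12856 in the 18 monocyte libraries and 13307 in all 36. P-values were two-sided and adjusted with the Benjamini-Hochberg method over all genes tested, with a threshold of 0.05 and intervals of 95%. Comparisons spanning exposures averaged FA and PM2.5 with equal weight. P-values measure the spread between these libraries, and fits without a block treat populations of the same mice as independent. All 8 genes passed the filter in each model. The 8 genes, the 71 pathway genes, the markers and the tests were chosen with earlier results of these data known. Pathway genes were named by a rule of up to 4 per direction with the largest difference past the threshold and no overlap between groups, and the genes most like each gene by rank of Pearson r. Alternatives were a pseudocount of 0.1, no filter, quantile normalization, libraries rescaled to a common sum, models of the compared groups alone, a replicate block, and leaving out libraries. A few genes are left out of the text. The scripts were tested on simulated data. Start-site windows were matched by symbol for 5 of the 8 genes, and the plots were made in Python 3.11.15 (matplotlib 3.10.9).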

Additional observations from a re-analysis of the deposited data

Results flagged for a closer look

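The difference between CD45.1 and CD45.2 cells at 32-weeks was not the same in AΦ and in monocytes for Apoc1, by limma's test of the difference itself (-3.87 on the log2 scale, adjusted p 0.000896). Likewise, the change from 4-weeks to 32-weeks in CD45.2 cells differed between TR-AΦ and monocytes for Apoe (-3.02, adjusted p 0.00366) and Abca1 (-1.43, adjusted p 0.0177). The Apoe result did not pass without replicate 2 of every group (adjusted p 0.0786).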

How the results depend on the processing

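Of the alternative values of the number of genes passing, 318 stayed within the limits set and 9 moved. With the replicate number as a block, 1 gene passed between times in TR-AΦ of PM2.5 (Lpl), where 0 did without it, and with a block for each exposure and number, an alternative chosen after the data were seen, 0 genes passed between BM-AΦ and TR-AΦ (1 without it) and 2 in the comparison of origin between cell types (1 without it), and Nr1h2 passed under either block between TR-AΦ and monocytes at 32-weeks. The numbers did not pair the libraries by the measure used, since in none of 20 pairs of groups were all 3 correlations of same-numbered libraries over 0.1, although in 7 of them each of the 6 libraries correlated best with its own number. Pairs of groups across exposures or times cannot share mice, and such pairs are among the 20 and also among the 7. Leaving out 1 library at a time gave 0 to 1 genes for TR-AΦ of PM2.5 between times (1, Abcg1, without PM2.5 replicate 0 of 4-weeks), 0 to 1 for PM2.5 against FA in CD45.2 monocytes of 32-weeks, 0 to 1 for CD45.1 against CD45.2 monocytes, 1 to 2 for origin between cell types, 5 to 7 for TR-AΦ against monocytes at 32-weeks and 6 to 7 for BM-AΦ against monocytes. Without replicate 2 of every group, 1 gene passed in the comparison of time between cell types. Rescaling each library to a common sum let 1 gene (Abca1) pass between CD45.1 and CD45.2 monocytes. It also moved the median log2 difference of all genes between AΦ and monocytes from -0.019 to 0.17, from 0 to 0.11 and from 0.028 to 0.29, and the genes passing from 3011 higher and 3397 lower to 4243 and 2127, from 3141 and 3150 to 3822 and 2381, and from 3601 and 3166 to 5443 and 1841. The median moved from -0.0063 to 0.13 for PM2.5 against FA in CD45.2 monocytes of 4-weeks, from 0.0021 to -0.11 for CD45.1 against CD45.2 monocytes and from 0.042 to 0.18 for origin between cell types. The split went from 908 higher and 1006 lower to 1090 and 520 for CD45.2 monocytes with time, and from 470 and 579 to 167 and 552 for time between cell types. Signs turned 15 times, in 5 differences that passed in neither form. For BM-AΦ minus TR-AΦ, Nr1h2 was 0.013 rescaled and -0.093 to 0.018 without 1 library, Nr1h3 was -0.061 to 0.23 without 1 library, and Lpl was -0.011 with quantile normalization and -0.097 to 0.14 without 1 library. For TR-AΦ minus monocytes, Nr1h2 at 4-weeks was 0.014 with quantile normalization and 0.10 rescaled, and Abca1 at 32-weeks was 0.065 rescaled and -0.44 to 0.079 without libraries. Single differences were followed for those the text gives, and for 90 others, which had 1518 alternative values, 103 had the other sign and 0 passed. The main limits are 3 libraries per group, FPKM without counts, and times that were separate cohorts.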
